A study of Aspergillus nidulans and Aspergillus wentii with 48 samples.

Results

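The 30 genes described here are those of *Aspergillus nidulans* whose transcript level rose under every one of 3 osmotic treatments in both of the strains studied. They were chosen by a rule on L, the log2 of the ratio of the mean treated to the mean untreated level after 1 is added to each, where the level is in RPKM (reads per kilobase of gene, scaled to the library total): a gene belongs to the group when L is over 1 for sorbitol, for NaCl and for NaCl + sorbitol, in the reference strain and in the *gfdB* deletion mutant. Of 10988 *A. nidulans* features in the table, 30 met the rule, and the table holds 23647 features when those of *Aspergillus wentii* are counted. Since the rule used these 6 comparisons with the untreated cultures, the rise itself is a description here and carries no test. What the rule did not use are the differences between the treatments and between the strains, and these were tested, although the stressed libraries in them are the ones that entered the rule.

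The RNA came from mycelium of submerged cultures, grown at 25 °C in minimal broth for 36 h (strain THS30, the *gfdB*+ reference) or 38 h (Δ*gfdB*), then washed and moved for 0.5 h to fresh broth, which held no added osmolyte, sorbitol at 2 M, NaCl at 1 M or both of these together. The text that describes the series exchanges the concentrations of sorbitol and NaCl, and the values of the treatment protocol were followed. Each of the 8 groups held 3 libraries given as biological replicates, 24 in all, and each genotype was represented by 1 strain. The genotype entry of 11 libraries titled Δ*gfdB* named another gene, so the titles were followed: *gfdB* had at most 2 reads in any library titled Δ*gfdB* and at least 71 in every THS30 library. Because the strains were harvested after different times, genotype and culture age cannot be told apart in a comparison of strains.

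When the medium becomes concentrated, a fungal cell loses water and turgor, and it answers by storing small compatible solutes, in the aspergilli mostly polyols such as glycerol and mannitol. The high osmolarity glycerol (HOG) pathway carries the signal: sensor histidine kinases and a phosphorelay control a MAP kinase cascade, which ends in the kinase SakA and reaches transcription factors such as AtfA. Both sorbitol and NaCl withdraw water, and NaCl also brings sodium ions, which the cell has to pump out or keep away.

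The libraries held 11438978 to 53348830 counted reads. The 30 genes took 0.0809 to 0.0849% of the reads of the untreated THS30 libraries, 0.568 to 0.577% of those with sorbitol, 0.568 to 0.623% of those with NaCl and 0.241 to 0.294% of those with NaCl + sorbitol. In Δ*gfdB* these shares were 0.0861 to 0.103%, 0.603 to 0.682%, 0.619 to 0.704% and 0.275 to 0.282%. In both strains the combined treatment thus gave the group a share of the reads above that of the untreated cultures and below that of either single stress. Replicates differed for these genes in most groups: replicate 1 of untreated Δ*gfdB* was the highest of its 3 for 21 of the 30 genes (47.5% of all features tested), replicate 3 of THS30 under sorbitol for 18 (31.0%) and replicate 1 of THS30 under NaCl + sorbitol for 17 (41.9%), and replicate 1 of THS30 under sorbitol was the lowest for 22. Each library was left out in turn, and the text names those that decide a call it describes.

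**Figure D1:**
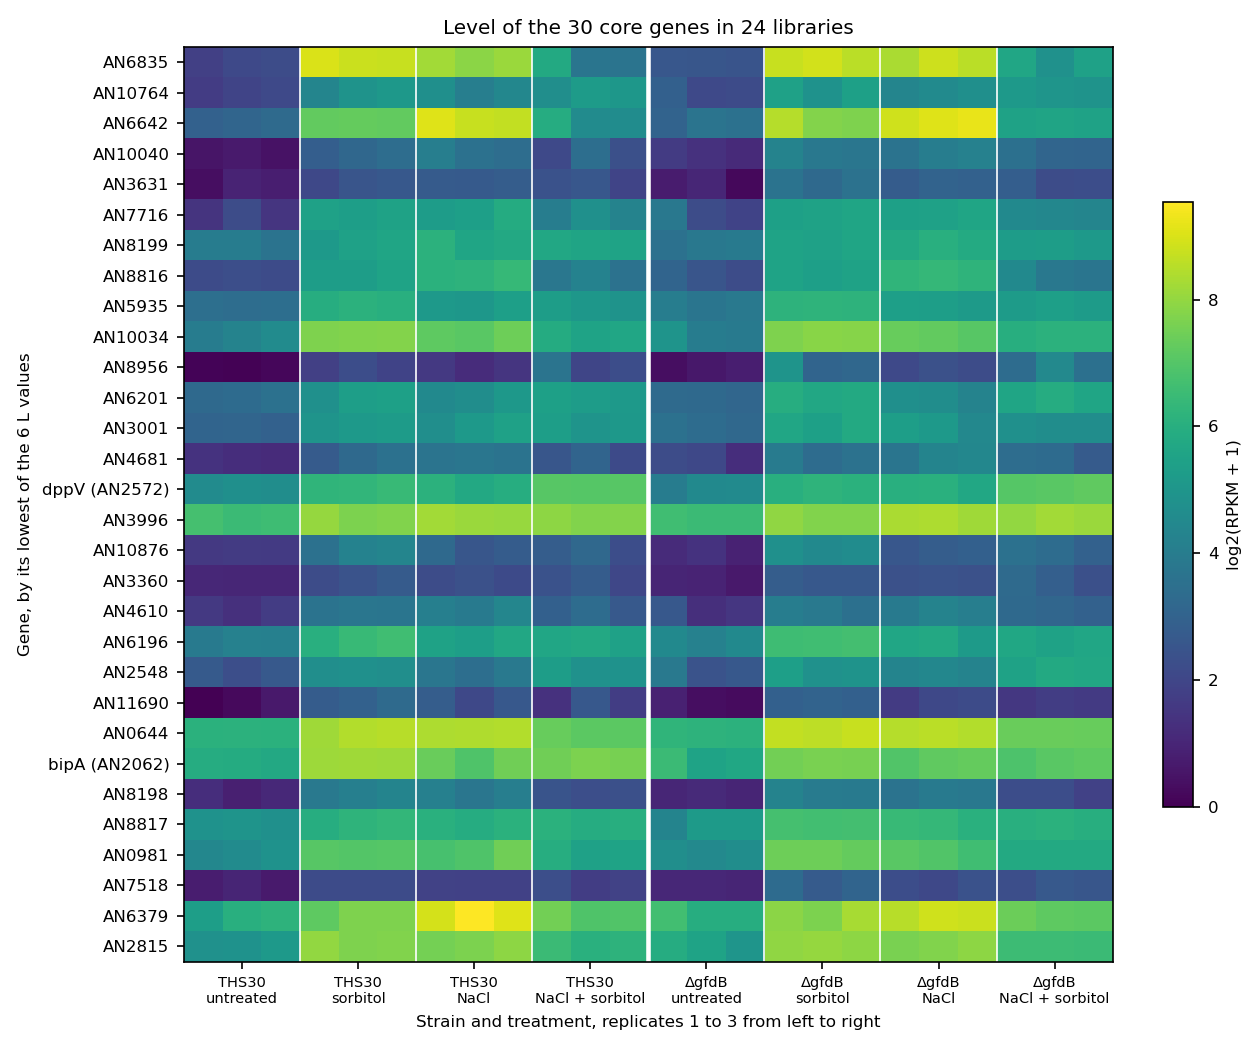
Colour gives the level of each of the 30 genes (rows, from the largest to the smallest of their lowest L) in each of the 24 libraries (columns, 3 replicates per strain and treatment) as log2(RPKM + 1). In each strain every gene is at its lowest in the untreated libraries, and the rows differ in which treatment is highest.

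The genes ranged from nearly silent to abundant. Mean untreated RPKM was under 1 in both strains for 3 genes and over 10 in both for 11, and the median of the 30 was 6.11 in THS30 and 8.10 in Δ*gfdB*, against 13.2 and 13.1 over all features. Under sorbitol the median of the 30 reached 41.2 and 46.8, while that of all features was 11.8 and 10.1. Their length, 321 to 3658 bases with a median of 1497, was like that of all features, whose median was 1490.

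All 30 genes had 3 treated libraries above the 3 untreated ones in each of the 6 comparisons, which the rule nearly forces. Over all features the treated libraries lay above the untreated ones in 30% for THS30 under sorbitol, 23.5% under NaCl and 20.1% under NaCl + sorbitol, and in 21.4%, 20.8% and 14.5% for Δ*gfdB*. L over 1 was met by 8.75% of features in THS30 under sorbitol, 9.98% under NaCl and 2.34% under NaCl + sorbitol, and by 7.43%, 8.76% and 1.95% in Δ*gfdB*. The combined treatment was therefore the part of the rule that most features failed. Among the 420 features with L over 1 under both single stresses in both strains, 30 (7.14%) also passed it under NaCl + sorbitol in both. In the other 390 the median L under NaCl + sorbitol was 0.15 in THS30 and 0.12 in Δ*gfdB*, and it was below 0 in 151 and 156 of them. In the other direction, 137 features had L over 1 under NaCl + sorbitol in both strains, and 21.9% of these were members.

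**Figure D2:**
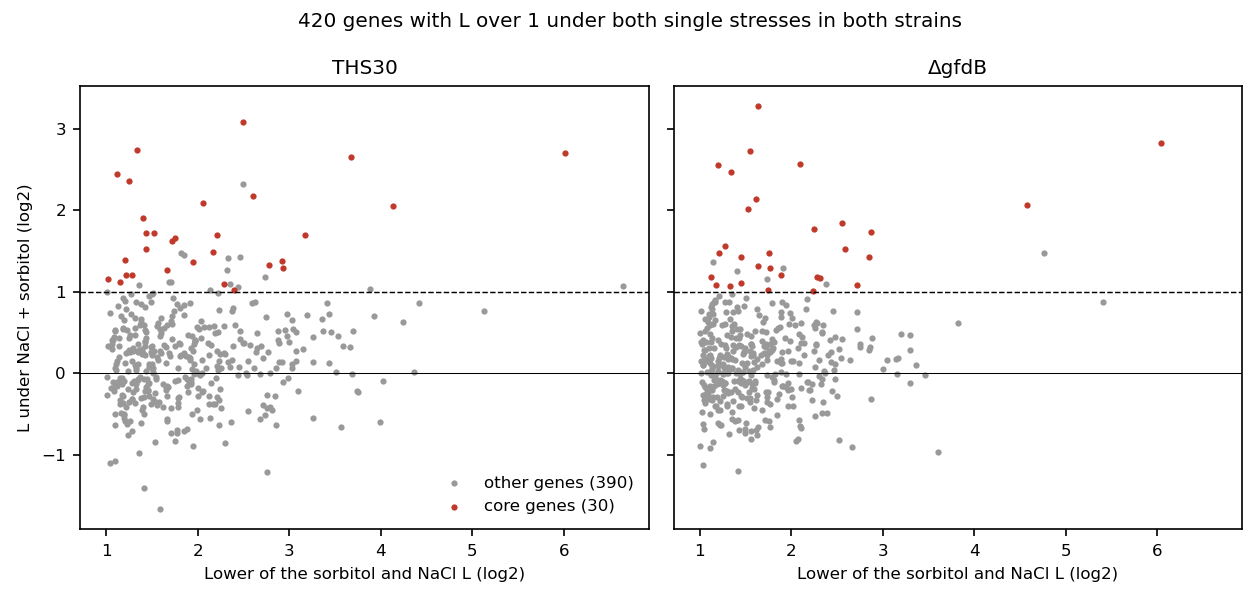
Each point is 1 of the 420 features with L over 1 under sorbitol and under NaCl in both strains. The x axis gives the lower of its sorbitol and NaCl L in the strain named above the panel and the y axis its L under NaCl + sorbitol, both on the log2 scale. The 30 members (red) lie above the dashed line at 1 by construction, and most of the other 390 (grey) lie near 0.

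Median L over the 30 was 2.28 under sorbitol, 2.15 under NaCl and 1.64 under NaCl + sorbitol in THS30, and 2.44, 2.10 and 1.48 in Δ*gfdB*. For 22 members the lowest of the 6 values came from NaCl + sorbitol, in Δ*gfdB* for 14 and in THS30 for 8, and for the other 8 it came from NaCl. The members just inside the threshold by their lowest value were AN2815 (1.01), AN6379 (1.02) and AN7518 (1.02). Just outside were AN4586 (0.97), AN5859 (0.95) and AN2342 (0.93). A further 31 features had L over 1 in 5 of the 6 comparisons, 15 of them failing in Δ*gfdB* under NaCl + sorbitol. Adding 1 RPKM shrinks L for weakly expressed genes, so AN8956, at 0.0292 to 0.127 RPKM in untreated THS30, had an L of 2.74 under NaCl + sorbitol for a ratio of means of 86.5. That ratio rests on as little as 1 read in an untreated library, and without THS30 replicate 1 under NaCl + sorbitol it was 47.7, with an L of 2.03.

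Few of the 30 carry a name or function in the sources used. The reference annotation gave symbols for 2, *bipA* (AN2062) and *dppV* (AN2572), and the annotation terms supplied with the study covered 4 more: AN6642 (proton transport driven by pyrophosphate hydrolysis), AN8956 (transport of inorganic anions), AN8817 (response to unfolded protein) and AN0981 (organelle membrane). AN2815 is described there as a putative mannitol 2-dehydrogenase. These terms were drawn up from genes that responded in the same libraries, so they are given as labels only. The other 23 are known here by their identifiers.

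The steepest rise was that of AN6835. It stood at 2.53, 3.34 and 3.65 RPKM in the untreated THS30 libraries and reached, under sorbitol, 516, 441 and 425 RPKM. NaCl brought it to 294, 235 and 276 RPKM and NaCl + sorbitol to 54.2, 12.2 and 11.8. In Δ*gfdB* it went from 4.97, 4.90 and 4.53 RPKM to 433, 479 and 378 under sorbitol, 322, 446 and 373 under NaCl and 49.8, 27.1 and 43.6 under NaCl + sorbitol. Among the 10988 features its mean level moved in THS30 from rank 7637 to rank 285 under sorbitol, and to rank 3310 under NaCl + sorbitol. The ratios of its THS30 means were 145 under sorbitol, 84.6 under NaCl and 8.22 under NaCl + sorbitol, and the last was 3.79 without replicate 1.

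AN6642, the gene with the proton transport term, was highest under NaCl. Its THS30 libraries held 6.90, 7.59 and 8.77 RPKM untreated, 150, 156 and 153 under sorbitol, 533, 429 and 407 under NaCl and 58.6, 23.1 and 24.1 under NaCl + sorbitol. The Δ*gfdB* libraries held 7.18, 11.6 and 10.9 RPKM untreated, 357, 217 and 205 under sorbitol, 468, 537 and 606 under NaCl and 44.4, 46.3 and 43.8 under NaCl + sorbitol. In both strains the NaCl libraries lay above those of the other 3 conditions without overlap. The table also lists 2 short upstream open reading frames of AN6642 as features of their own, and both had 0 reads in all 24 libraries.

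*bipA* encodes the Hsp70 chaperone of the endoplasmic reticulum, which helps newly made secretory proteins fold. Untreated THS30 held 58.7, 58.0 and 52.6 RPKM of it, the sorbitol libraries 282, 287 and 284, the NaCl libraries 164, 121 and 177 and those with both 175, 199 and 191. In Δ*gfdB* it held 89.7, 45.8 and 50.5 RPKM untreated, 183, 198 and 190 under sorbitol, 123, 146 and 156 under NaCl and 116.9, 136 and 145 under NaCl + sorbitol. The sorbitol libraries were the highest in each strain, and every Δ*gfdB* sorbitol library lay below every THS30 sorbitol library.

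*dppV* encodes dipeptidyl peptidase V, a protease that removes dipeptides from protein ends. Here NaCl + sorbitol gave the highest level: 133, 130 and 134 RPKM in THS30 against 23.6, 26.3 and 24.9 untreated, 74.5, 77.6 and 85.2 under sorbitol and 68.9, 53.8 and 59.9 under NaCl. In Δ*gfdB* the combined treatment gave 129, 135 and 149 RPKM, against 15.0, 21.9 and 22.8 untreated, 64.7, 73.6 and 68.2 under sorbitol and 63.8, 65.6 and 51.3 under NaCl. The combined libraries stood above all others in both strains.

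AN2815, the putative mannitol 2-dehydrogenase, an enzyme type that interconverts mannitol and fructose, held 27.2, 28.1 and 33.7 RPKM in untreated THS30. It reached 252, 206 and 212 RPKM under sorbitol, 186, 200 and 240 under NaCl and 89.6, 66.0 and 71.9 under NaCl + sorbitol. In Δ*gfdB* the untreated libraries were higher and more spread, at 58.4, 46.0 and 30.4 RPKM, and the treated ones held 248, 263 and 242, then 195, 210 and 242, then 93.2, 93.0 and 88.8 in the same order. Its position as the member nearest the threshold comes from that last comparison.

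Among the other abundant members, AN0644 and AN0981 shared the course of AN2815. AN0644 held 67.5, 69 and 67.7 RPKM in untreated THS30, 294, 349 and 365 under sorbitol, 328, 336 and 352 under NaCl and 161, 140 and 139 under NaCl + sorbitol. Its Δ*gfdB* libraries held 75.2, 70.8 and 68.5 RPKM, then 402, 388 and 431, then 354, 376 and 350, then 165, 164 and 158. The replicates of this gene lay close together, and in both strains the combined treatment stood clear of the untreated and of the singly stressed libraries. AN0981 held 20.2, 23.2 and 27.8 RPKM in untreated THS30, 132, 127 and 130 under sorbitol, 107.4, 120 and 176 under NaCl and 60.0, 42.6 and 45.8 under NaCl + sorbitol, and its lowest L, 1.03, was among the smallest of the group. AN10034 held 15.0, 18.3 and 23.3 RPKM untreated, 208, 210 and 218 under sorbitol, 142, 135 and 170 under NaCl and 58.0, 45.2 and 48.7 under NaCl + sorbitol in THS30, so that sorbitol gave its highest level.

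At the low end were genes whose rise was large as a ratio and small in reads. AN11690 had 0, 0.169 and 0.553 RPKM in untreated THS30 and 5.85, 6.77 and 8.94 under sorbitol. AN10040 rose from 0.450, 0.623 and 0.396 RPKM to 15.9, 10.8 and 9.73 under NaCl in THS30, where its replicates under NaCl + sorbitol, at 3.27, 9.91 and 4.03, spread widely. AN7518 and AN3360 stayed under 10 RPKM in all 24 libraries. Over the 30 genes the ratio of mean RPKM ran in THS30 from 2.34 (AN3996) to 145 (AN6835) under sorbitol, from 2.26 (AN8817) to 84.6 (AN6835) under NaCl and from 2.08 (AN0981) to 86.5 (AN8956, or 47.7 without replicate 1) under NaCl + sorbitol.

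**Figure D3:**
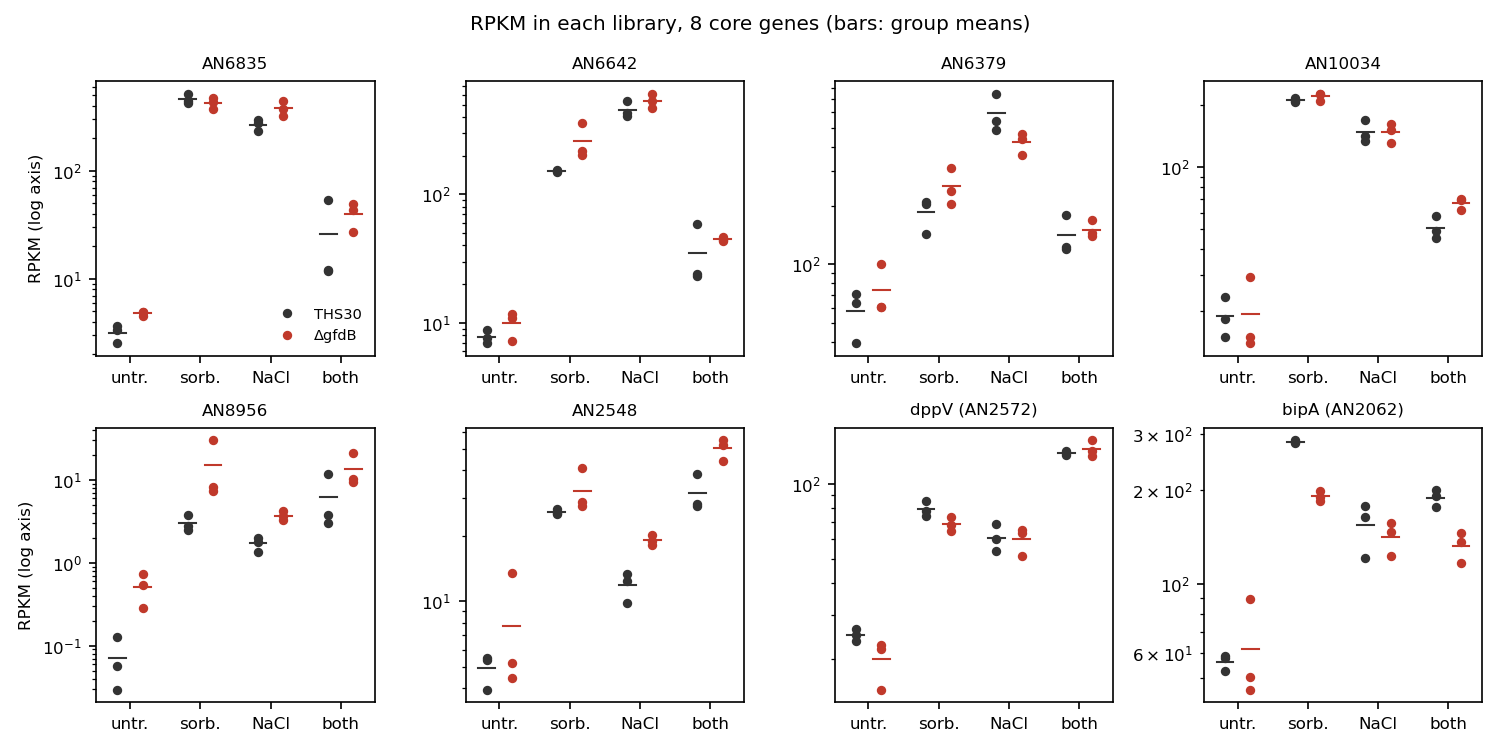
Points give the RPKM of 8 members in each library on a log axis, by treatment (untr., untreated; sorb., sorbitol; both, NaCl + sorbitol) and strain, and bars give group means. AN6835, AN6642 and AN10034 drop under the combined treatment, whereas *dppV* and AN2548 are highest there, and 1 library stands above its fellow replicates in several groups.

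The comparisons between treatments asked whether a gene that answered every stress answered each to the same degree. They were read from an edgeR quasi-likelihood fit over 9498 features that passed a filter on low counts, all 30 members among them. A feature was called when its Benjamini-Hochberg adjusted p was under 0.05 and its change was over 2-fold.

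Under NaCl + sorbitol many members were lower than under either single stress. Against NaCl, 13 were called lower and 3 higher in THS30, where 20.7% of all features tested were called lower and 17.1% higher. In Δ*gfdB* 13 were lower and 2 higher, where the shares of all features were 20.6% and 14%. The same 13 genes were lower in both strains, among them AN10040, whose THS30 value of -1.22 was -0.92 and not called without replicate 1 under NaCl + sorbitol and -0.97 without NaCl replicate 1, and whose Δ*gfdB* value, just past 2-fold, was -0.82 to -0.99 and not called when any of 4 libraries was left out. Against sorbitol, 10 were called lower and 1 higher in THS30 (14.3% and 5.54% of all features; AN11690, at -1.17, was -0.82 without replicate 1 under NaCl + sorbitol and -0.99 without sorbitol replicate 3), and the 14 called in Δ*gfdB* were lower (13.3% of all features, with 3.51% higher). The median log2 fold change of the 30 was -0.53 against NaCl and -0.53 against sorbitol in THS30, and -0.72 and -0.88 in Δ*gfdB*, with medians of all features between 0.01 and 0.05. Without the scaling between libraries (TMM), the calls over all features shifted, to 335 higher and 1570 lower from 526 and 1356 in THS30 against sorbitol and to 1881 and 1573 from 1328 and 1952 in Δ*gfdB* against NaCl. The members called lower then numbered 11 and 13 in THS30, against sorbitol and against NaCl, and 13 and 12 in Δ*gfdB*.

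The 8 members called lower under NaCl + sorbitol than under each single stress in both strains were AN6835, AN6642, AN8816, AN10034, AN0644, AN8198, AN0981 and AN2815, or 26.7% of the members against 8.71% of all features tested. Members were chosen as raised under both single stresses, and most features were not, so these shares and those above compare unlike sets. The other 390 features so raised had a median L under NaCl + sorbitol of 0.15 in THS30 and 0.12 in Δ*gfdB*. For the members it was 1.64 and 1.48, a gap set by the rule, which split these features by their L under NaCl + sorbitol. The largest falls among the 8 members were in AN6642 and AN6835. Against NaCl, AN6642 changed by -3.82 ± 0.29 (log2, SE) in THS30 and -3.79 ± 0.29 in Δ*gfdB*, with edgeR adjusted p = 1e-10 and 1.4e-10. Against sorbitol, AN6835 changed by -4.04 ± 0.40 in THS30 and -3.48 ± 0.39 in Δ*gfdB*, with edgeR adjusted p = 2e-08 and 1.3e-07. Leaving out THS30 replicate 1 under NaCl + sorbitol moved the values of AN6835 in THS30 from -3.49 to -4.59 against NaCl and from -4.04 to -5.15 against sorbitol. AN8816 changed by -2.53 ± 0.20 against NaCl in THS30 and -2.47 ± 0.20 in Δ*gfdB*. It held 67.1, 70.7 and 83.8 RPKM under NaCl in THS30, 39.1, 38.4 and 45.0 under sorbitol and 12.8, 17.8 and 11.2 under NaCl + sorbitol, with no overlap between these groups. AN8198 and AN10034 fell against sorbitol by 1.85 and 1.96 on the log2 scale in THS30 and by 2.26 and 1.78 in Δ*gfdB*.

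The members that were higher under NaCl + sorbitol were few. AN2548 held 38.7, 27.5 and 27.9 RPKM there in THS30 against 12.5, 9.79 and 13.4 under NaCl, and 44, 54.9 and 52.4 against 18.9, 20.2 and 18.1 in Δ*gfdB*. Its log2 fold change was 1.28 ± 0.25 in THS30 and 1.20 ± 0.25 in Δ*gfdB*, with edgeR adjusted p = 8.1e-05 and 0.00017. *dppV* was called in THS30 (1.00 ± 0.13) and had 0.99 in Δ*gfdB*, just under 2-fold, and leaving out any of 3 THS30 libraries brought the THS30 value to between 0.93 and 0.98. AN8956, the gene with the anion transport term, was called higher than under NaCl in both strains, at 1.73 ± 0.51 and 1.68 ± 0.48. In THS30 this rested on replicate 1, at 11.7 RPKM beside 3.00 and 3.78, and without it the value was 0.88 and not called. Against sorbitol in THS30 AN8956 was called at 1.12, a value that was 0.27 and not called without the same library. That call was also lost without sorbitol replicate 1, 2 or 3, at 1.00, 1.32 and 1.07.

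NaCl and sorbitol given alone differed for fewer members. In THS30, 3 were higher under NaCl and 1 lower, where 8.22% and 6.14% of all features tested were called. In Δ*gfdB* 1 was higher and 4 were lower, against 9.48% and 6.68% of all features. Without TMM the calls over all features moved to 538 higher and 1087 lower in THS30, from 781 and 583, and to 710 and 898 in Δ*gfdB*, from 900 and 634. AN6642 was the member higher under NaCl in both strains, by 1.81 ± 0.27 in THS30 and 1.20 ± 0.26 in Δ*gfdB* (edgeR adjusted p = 7.7e-06 and 0.00055). AN6379 followed in THS30, where it rose from 144, 208 and 205 RPKM under sorbitol to 490, 746 and 544 under NaCl, a change of 1.91 ± 0.24. In Δ*gfdB* its libraries held 238, 203 and 312 RPKM under sorbitol and 362, 464 and 440 under NaCl, and the change of 0.89 stayed under 2-fold. AN10876 was the member higher under sorbitol in both strains. It held 10.7, 17.7 and 19.4 RPKM under sorbitol and 8.61, 4.89 and 5.91 under NaCl in THS30, and 26.8, 21.9 and 23.7 against 5.10, 6.06 and 6.63 in Δ*gfdB*. Its log2 change from sorbitol to NaCl was -1.08 ± 0.25 in THS30 and -1.87 ± 0.26 in Δ*gfdB*, and in THS30 it was -0.91 without sorbitol replicate 3 and -0.92 without NaCl replicate 2. AN8956 was lower under NaCl than under sorbitol in Δ*gfdB* by -1.85 ± 0.49, a call that was lost, at -0.93, without sorbitol replicate 1.

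In 8 members none of the 6 comparisons between treatments was called: AN10764, AN8199, AN5935, AN3996, AN3360, *bipA*, AN8817 and AN7518. That is 26.7% of the members, against 49.9% of all features tested. AN3996 was the steadiest of the abundant ones. It held 106, 89.5 and 93.5 RPKM in untreated THS30, 263, 203 and 210 under sorbitol, 294, 276 and 266 under NaCl and 243, 211 and 218 under NaCl + sorbitol, and in Δ*gfdB* 98.2, 90.9 and 89, then 249, 214 and 215, then 323, 334 and 287, then 252, 294 and 278. Its group means thus rose 2.33 to 3.39-fold whichever the treatment. AN10764, by contrast, was a low gene with a large rise of like size: 2.23, 2.92 and 3.32 RPKM in untreated THS30 became 19.5, 29.2 and 32.9 under sorbitol, 25.8, 15.9 and 20.2 under NaCl and 25.1, 37 and 31.9 under NaCl + sorbitol, and the treated groups overlapped.

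The order of the treatments was alike in the strains for most members, and least so between NaCl and sorbitol. The treatment with the highest mean was the same in both strains for 21 of the 30 genes. It was sorbitol for 12 members in THS30 and 19 in Δ*gfdB*, NaCl for 12 and 8, and NaCl + sorbitol for 6 and 3. Across the 30 genes, the log2 difference between treatments in THS30 and that in Δ*gfdB*, which share no library, correlated with r = 0.83 for NaCl against sorbitol, 0.91 for NaCl + sorbitol against sorbitol and 0.98 for NaCl + sorbitol against NaCl. Over all 9498 features tested r was 0.87, 0.87 and 0.95. These correlations are across genes, which are not independent replicates. The changes in THS30 and Δ*gfdB* had the same sign in 23, 25 and 28 of the 30 members, in the same order. For NaCl against sorbitol, 16 members were above 0 in THS30 and 9 in Δ*gfdB*, or 13 and 8 without TMM.

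**Figure D4:**
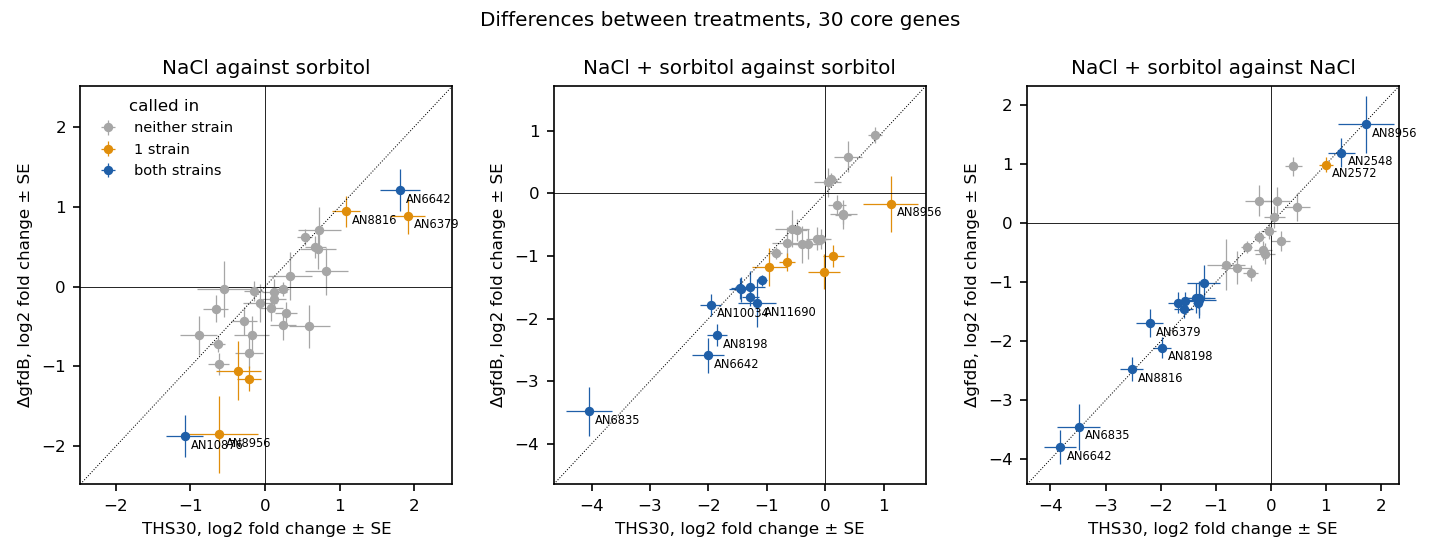
Each point is 1 member, with its log2 fold change between the treatments named above the panel in THS30 (x) and Δ*gfdB* (y) and bars of 1 SE from the edgeR fit. Colour gives in how many strains the change was called, and the dotted line marks equal change. AN6642 and AN6835 lie far down the diagonal in the comparisons with NaCl + sorbitol, and AN8956 and AN2548 lie at its upper end against NaCl.

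The strains were compared within each condition to see whether the loss of *gfdB*, a glycerol-3-phosphate dehydrogenase gene, changed the level of these genes. Few members differed more than 2-fold. In untreated cultures the 2 called were higher in Δ*gfdB*, where 1.99% of all features tested were called higher and 0.59% lower. Under sorbitol the 4 called were higher (2.46% of all features, with 1.84% lower). Under NaCl and under NaCl + sorbitol 0 were called in either direction (1.2% higher and 1.06% lower, then 1.26% and 0.726%). With unadjusted p under 0.05, 8 members differed under NaCl and 13 under NaCl + sorbitol in edgeR. DESeq2 and limma also called 0 in each. With edgeR adjusted p under 0.05 at any fold change, 2 of the 30 members differed under NaCl, against 15.65% of all features tested. Under NaCl + sorbitol 2 did so, against 12.02%. Untreated there were 4, against 16.07%, and under sorbitol 15, against 36.69%. Without TMM the calls over all features under sorbitol moved to 142 higher and 338 lower, from 234 and 175, and under NaCl the share of higher calls moved from 53.0% to 41.6%.

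Most of the differences had the same sign. The log2 fold change of Δ*gfdB* against THS30 was above 0 for 24 of the 30 members untreated, 28 under sorbitol, 22 under NaCl and 25 under NaCl + sorbitol, with medians of 0.40, 0.45, 0.15 and 0.19. Over all features 49.1%, 47%, 53.9% and 44.5% were above 0. Without TMM the counts were 22, 25, 18 and 24. Without replicate 1 of untreated Δ*gfdB* the untreated count was 22 and its median 0.20, and over all single libraries left out the 4 counts ran from 21 to 25, 27 to 29, 20 to 26 and 20 to 26.

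The members called under sorbitol were AN8956, AN3631, AN7518 and AN10040. AN8956 was near the floor in untreated cultures, at 0.0563, 0.0292 and 0.127 RPKM in THS30 and 0.281, 0.536 and 0.730 in Δ*gfdB*, without overlap but not called. Under sorbitol it held 2.49, 3.78 and 2.79 RPKM in THS30 and 29.8, 7.35 and 8.09 in Δ*gfdB*, a log2 fold change of 2.44 ± 0.48 (edgeR adjusted p = 0.00059) that was 1.53 without Δ*gfdB* replicate 1. In that library 6 of 9 conidiation genes were the highest of 3 and 2 were the lowest, and the hydrophobin gene *rodA*, whose product coats spores, stood at 87.2 RPKM beside 9.70 and 13.6, while *yA* stood at 113 beside 113 and 111. In the libraries with the most AN8956 under NaCl + sorbitol, 7 of the 9 genes were highest in THS30 and 8 in Δ*gfdB*. In that of untreated Δ*gfdB* 1 was the highest and 7 were the lowest. The same counts in THS30 were 5 and 1 untreated, 2 and 2 under sorbitol and 2 and 5 under NaCl. In Δ*gfdB* under NaCl they were 2 and 3. Of all features tested, 40.3% were highest in Δ*gfdB* sorbitol replicate 1. Under NaCl + sorbitol, 41.9% were highest in THS30 replicate 1 and 26.0% in Δ*gfdB* replicate 2. Over the 8 groups, the library with the most *rodA* held the most AN8956 in 4, the second most in 2 and the least in 2, which were THS30 under sorbitol and under NaCl. The part of spore-forming cells in the level of AN8956 was not tested. AN3631 held 3.21, 4.78 and 5.22 RPKM in THS30 and 11.3, 8.70 and 11.2 in Δ*gfdB*, a change of 1.41 ± 0.27. AN7518 held 3.55, 3.52 and 3.53 RPKM in THS30 and 9.08, 5.67 and 7.51 in Δ*gfdB*, a change of 1.24 ± 0.19. In all of these the libraries of the strains did not overlap. *bipA* was the member with the most negative value under sorbitol, -0.40, and under NaCl + sorbitol, -0.50, and with edgeR adjusted p = 0.070 and 0.061 it passed the threshold in neither.

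AN10040 was called higher in Δ*gfdB* untreated and under sorbitol. Its untreated libraries held 0.450, 0.623 and 0.396 RPKM in THS30 and 2.15, 1.60 and 1.23 in Δ*gfdB*, and those under sorbitol 6.22, 8.19 and 9.69 and 18.1, 13.3 and 12.4. The log2 fold changes were 1.81 ± 0.52 and 1.03 ± 0.30, with edgeR adjusted p = 0.021 and 0.0096. Both calls were lost when certain libraries were left out, the untreated call without THS30 replicate 1, THS30 replicate 3 or Δ*gfdB* replicate 1 and the sorbitol call without replicate 1 of either strain. AN7716 was called in untreated cultures at 1.498 ± 0.42 (edgeR adjusted p = 0.017). Its THS30 libraries held 1.70, 3.68 and 1.76 RPKM and its Δ*gfdB* libraries 13.0, 3.62 and 2.80, so the groups overlapped. The call was lost without Δ*gfdB* replicate 1, at 0.52, and without THS30 replicate 1 or 3, at 1.29 and 1.34.

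**Figure D5:**
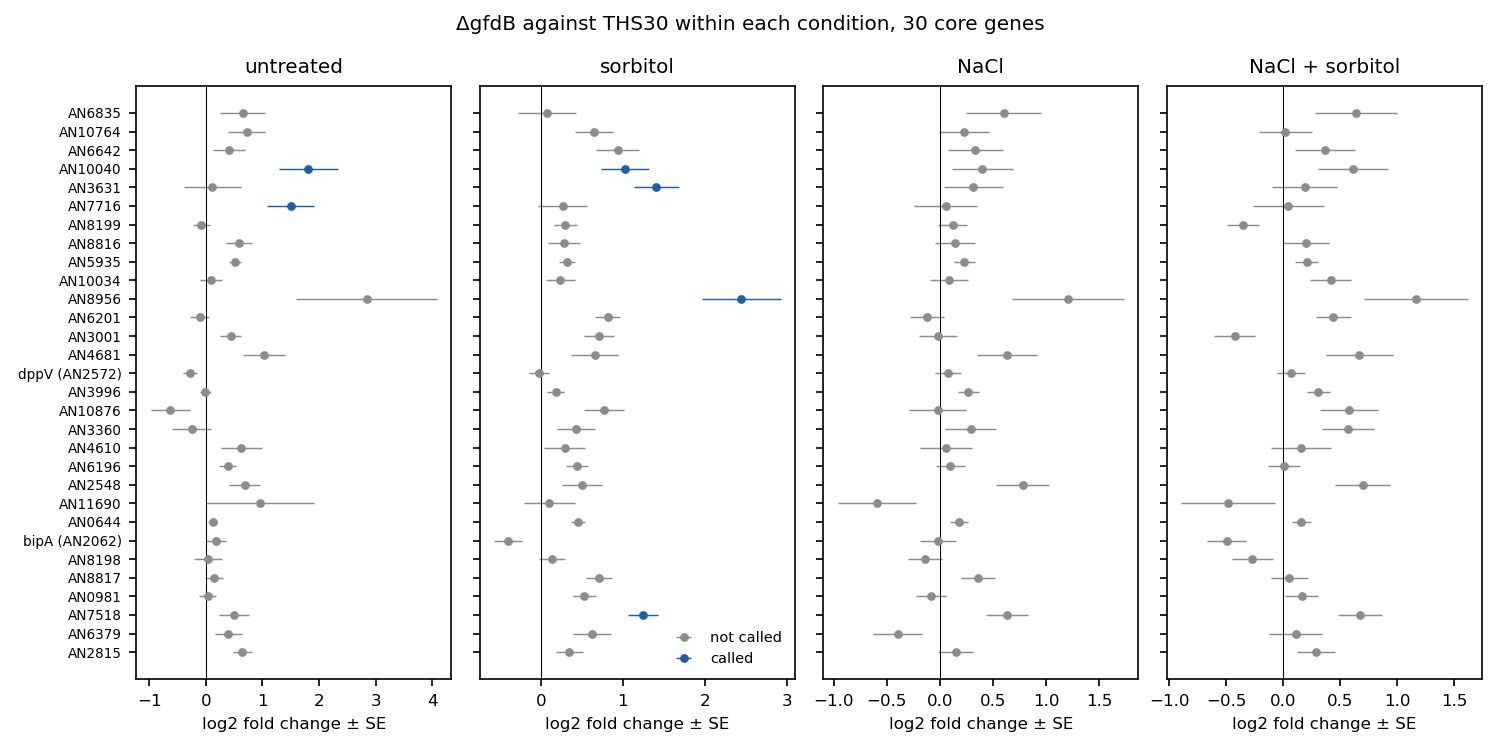
The log2 fold change of Δ*gfdB* against THS30 is shown for each member (rows) in each condition (panels), with bars of 1 SE from the edgeR fit. With TMM scaling values lie right of 0 for 24, 28, 22 and 25 of the 30 members from left to right, and the called ones (blue) are 2 untreated and 4 under sorbitol.

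None of the 16 genes of the study's osmotic stress list, the 12 of the HOG cascade and phosphorelay, the 10 of glycerol metabolism, the 6 of trehalose metabolism or the 35 oxidative stress enzymes was a member, and *bipA* was the only member on any list. Members are 0.273% of all features, so little can be read from their absence in lists of this size. In the edgeR fit, 6 of the 16 osmotic stress genes were called higher in THS30 under sorbitol, 9 under NaCl and 1 under NaCl + sorbitol, and 7, 8 and 1 in Δ*gfdB*. Of all features tested 15.3%, 19% and 7.54% were called higher in THS30 and 15.3%, 18.3% and 5.7% in Δ*gfdB*. The list median was 0.71, 1.19 and 0.03 on the log2 scale in THS30 and 0.95, 1.43 and 0.15 in Δ*gfdB*, where all features had medians between -0.12 and -0.01. 

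The MAP kinase kinase gene *pbs2*, the phosphatase gene *ptpA* and the transcription factor gene *atfA* each passed the rule under both single stresses and failed it under NaCl + sorbitol. For *atfA* (AN2911) L was 1.90 under sorbitol, 2.23 under NaCl and -0.12 under NaCl + sorbitol in THS30, and 2.18, 2.42 and -0.10 in Δ*gfdB*. For *pbs2* (AN0931) the values were 1.33, 2.09 and -0.19, then 1.53, 2.25 and 0.03. The gene of the MAP kinase itself, *sakA* (AN1017), had L of 0.60, 1.91 and -0.36 in THS30, with 0.21, 1.70 and -0.29 for the mutant. Not all 12 genes of the cascade and phosphorelay rose. In THS30 3 were called higher and 2 lower under sorbitol, and 5 and 1 under NaCl. In Δ*gfdB* 4 and 5 were called higher and 0 lower. For *tcsB* (AN1800) L was -1.19 under sorbitol and -1.91 under NaCl in THS30. *sskA* (AN7697) was called higher under NaCl + sorbitol in both strains, by 1.11 and 1.35 (log2), with L of -0.64 under NaCl in THS30. Nearest to membership were AN9168 of the glycerol list, with L over 1 in all but THS30 under NaCl + sorbitol (0.52), and AN8639 of the trehalose list, in all but Δ*gfdB* under NaCl + sorbitol (0.75). Without TMM, all-feature medians in these 6 comparisons moved by -0.38 to -0.11 and fewer features were called higher than lower in each, for example 1204 against 2730 in Δ*gfdB* under NaCl, from 1742 and 1665.

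Among 6 genes of endoplasmic reticulum folding, 1 was called higher under each single stress in both strains and 2 under NaCl + sorbitol, *bipA* being joined there by the calnexin gene *clxA* (AN3592), a lectin chaperone of the same compartment, with log2 fold changes of 1.33 in THS30 and 1.41 in Δ*gfdB*. The protein disulfide isomerase gene *pdiA* (AN7436) had L between -0.28 and 0.26 in the 6 comparisons. Of 9 genes of protein refolding, a list drawn from THS30 under sorbitol and so no independent evidence there, 6, 2 and 5 were called higher in THS30 under sorbitol, NaCl and NaCl + sorbitol, and 7, 2 and 5 in Δ*gfdB*. Beside *bipA*, AN0858 of this list was called higher in all 6 comparisons, and its L was under 1 only under NaCl, at 0.81 in THS30 and 0.82 in Δ*gfdB*.

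Spores are the other cells that a mycelial sample can hold. The summed RPKM of 9 conidiation genes was 18.1 to 21.7 in untreated THS30, 152 to 172 with sorbitol, 365 to 379 with NaCl and 28.9 to 35.7 under NaCl + sorbitol, and 27.5 to 40.9, 158 to 238, 381 to 401 and 40.6 to 68.3 in Δ*gfdB*. The sums thus moved with the treatments in the order of the members' read share, except that NaCl stood far above sorbitol. Most of the rise lay in *yA*, a spore pigment laccase gene, and *catA*, a spore catalase gene. *yA* went from 5.32, 4.92 and 5.20 RPKM to 274, 206 and 247 under NaCl in THS30. Other genes of the list did not rise there. *pksP* went from 2.13, 2.09 and 2.30 RPKM to 0.907, 0.940 and 0.911. *vosA* went from 6.99, 6.45 and 8.38 RPKM to 4.71, 6.36 and 5.28, and *rodA* from 1.20, 2.23 and 2.58 to 1.11, 1.27 and 1.21. The gene of the regulator that starts conidiation, *brlA*, held 0.374 to 4.79 RPKM over the 24 libraries and was called higher in 5 of the 6 comparisons with untreated cultures, by 1.12, 1.31 and 1.20 on the log2 scale in THS30 under sorbitol, NaCl and NaCl + sorbitol and by 1.27 and 1.07 in Δ*gfdB* under sorbitol and NaCl + sorbitol. The later regulator genes *abaA* and *wetA* were called higher in THS30 under sorbitol, by 1.45 and 1.48. Of the 8 conidiation genes tested, 5, 3 and 2 were called higher in THS30 under the 3 treatments and 4, 2 and 1 in Δ*gfdB*. None was called lower in these comparisons, and none of the 9 was at 0 in all 3 libraries of a group. The part of these cells in the members' levels was not tested.

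Of the 30 genes, 29 could be placed on a chromosome through the RefSeq annotation of assembly ASM1142v1. Chromosome I, which holds 12.5% of placed features, had 7 of them. Chromosomes II, III, VII and VIII (11.6 to 16.9% of features each) had 4 each, and IV and VI (9.31% and 11.1%) had 3 each. AN8198 and AN8199 are neighbours on chromosome II and AN8816 and AN8817 on chromosome III, with no gene between them. The neighbours did not share a pattern: AN8198 and AN8816 fell from each single stress to NaCl + sorbitol and AN8199 and AN8817 were called in none of the comparisons between treatments. AN8817, the gene with the unfolded protein term, held 28.4, 30.0 and 26.5 RPKM in untreated THS30, 61.0, 73.4 and 78.5 under sorbitol, 65.3, 59.1 and 67.7 under NaCl and 66.8, 59.1 and 62.3 under NaCl + sorbitol, with the 3 treatments overlapping. AN6201 and AN6196 lie on chromosome I with 4 genes between them. Of 51 tested genes next to a member that were not members, 11, 19 and 6 were called higher in THS30 under sorbitol, NaCl and NaCl + sorbitol (21.6%, 37.3% and 11.8%) and 11, 17 and 4 in Δ*gfdB* (21.6%, 33.3% and 7.84%), beside the shares of all features given above. The strand setting of the read counting is not given in the sources used here, so reads of overlapping neighbours cannot be told apart.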

How the data were processed

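RNA-seq libraries of 24 *A. nidulans* cultures (8 groups of 3) were used, and the 24 *A. wentii* libraries were not, since the study's orthologue lists pair none of the 30 genes with an *A. wentii* gene. Per the study's methods, the authors aligned single-end 75-base reads with HISAT2 2.1.0 to FungiDB genomes and counted them per gene with featureCounts. The deposited counts are whole reads per gene, not normalized. RPKM, also deposited, came from the authors' use of edgeR, and here each value equals its count divided by gene length and library total, with no scaling between libraries. The 48 columns of *A. wentii* counts and RPKM were not used.

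The rule on L used the RPKM values with a pseudocount of 1. Tests used the counts in edgeR 4.0.16 (R 4.3.3): TMM scaling, filterByExpr, 1 quasi-likelihood fit over the 8 groups, and Benjamini-Hochberg adjustment over the 9498 features tested. Called means adjusted p under 0.05 and over 2-fold. Each SE was derived from the fit, as the absolute log2 fold change divided by the square root of its F statistic. The scripts were tested on simulated counts. Alternatives were DESeq2 1.42.0, limma 3.58.1 on log2(RPKM + 1) and log2(RPKM + 0.1), no TMM, median-of-ratios size factors, no filter, only the groups compared, a replicate block, and each library left out.

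The members and the 8 gene lists were chosen with earlier results of these data known. Genes named are those with a symbol or a description, the 10 with the largest lowest L, the 10 highest under stress, the 3 on either side of the threshold, and for each tested contrast up to 3 called members in each direction. *rodA*, *yA*, *clxA*, *pdiA*, *brlA*, AN0858 and the other list genes named were chosen after their values were seen. Promoter motifs, planned as a description, were not analysed here. The edgeR p-values set a difference against the spread between replicate cultures, estimated over all 8 groups of 3 together.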

Additional observations from a re-analysis of the deposited data

How the results depend on the processing

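The membership count changed with the pseudocount, the threshold and the scaling. It was 79 with a pseudocount of 0.1, 14 with 5, 54 with L over 0.8, 6 with L over 1.5, 65 with RPKM rescaled by median-of-ratios size factors and 162 with the edgeR log2 fold change, and all 30 genes remained in those that are larger. Leaving out 1 library gave 26 to 39, and leaving out both replicate 1 of THS30 under NaCl + sorbitol and replicate 1 of untreated Δ*gfdB*, a choice made after seeing the data, gave 37, with 27 of the 30 kept. The members that dropped out when certain single libraries were left out were AN8817, AN7518, AN6379, AN4610, AN2815, AN2548, *bipA*, AN11690, AN10876 and AN0981. Of the 71 called differences between treatments or strains, 54 stayed called under every alternative, none changed sign, and 17 were lost in at least 1.

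Member calls between strains changed with several settings. In untreated cultures they went from 2 to 1 with only the 2 groups compared, 1 without both these libraries, 0 with limma on log2(RPKM + 1) and 4 with DESeq2, and to 0 to 3 with 1 library left out. Under sorbitol limma on log2(RPKM + 1) gave 2 in place of 4, and leaving out 1 library gave 3 to 5. Under NaCl the fit of only the 2 groups gave 1 in place of 0. Under NaCl + sorbitol leaving out both libraries gave 2 in place of 0, and leaving out 1 library gave 0 to 2. Between treatments, leaving out 1 library gave 9 to 13 members against sorbitol and 14 to 17 against NaCl under NaCl + sorbitol in THS30, 13 to 14 and 14 to 18 in Δ*gfdB*, and 3 to 4 and 4 to 7 for NaCl against sorbitol. For the list genes in THS30 under NaCl + sorbitol, limma on log2(RPKM + 1) called 9 in place of 15.

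Samples with the same number did not deviate together (r from -0.27 to 0.30, and in none of 16 contrasts was every pair over 0.1), so the numbers do not pair the samples. With the replicate block 10 members in place of 11 were called in THS30 under NaCl + sorbitol against sorbitol (AN8956 was lost) and 15 in place of 16 against NaCl (*dppV* was lost), and it changed no other member call. The planned description of promoter motifs and the comparisons in *A. wentii* were not run, since no sequence tables were given and no member had a listed *A. wentii* partner. Ratios of AN8956 and AN11690 rest on as few as 1 and 0 reads in an untreated library.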
